A study of Mus musculus with 18 samples.

Results

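The genes described here encode the nuclear subunits of the 5 complexes of oxidative phosphorylation, measured in mouse bone marrow-derived macrophages that were kept in plasma of 4 kinds of mice. Rows of the value table were taken where the platform's gene symbol began with Ndufa, Ndufb, Ndufc, Ndufs, Ndufv, Uqcr, Atp5 or one of the prefixes Cox4 to Cox8, or was Sdha, Sdhb, Sdhc, Sdhd or Cyc1. Symbols of assembly factors (8 rows) and of pseudogenes (4 rows) were left out. This gave 78 rows, each of a different gene, of 24705 rows with exactly 1 gene symbol: 34 for complex I, 4 for complex II, 8 for complex III, 19 for complex IV and 13 for complex V. Ndufa4 and Ndufa4l2 carry the prefix of complex I but were placed with complex IV, where the Ndufa4 protein is known to sit.

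Cells flushed from femurs were grown into macrophages with 30 ng/ml M-CSF, the growth factor of this lineage. On day 4 the serum was exchanged for 10% mouse plasma, and RNA was taken 48 hours later, on day 6. All plasma donors were C57BL/6J mice fed a Western diet for 8 weeks. The donors were wild-type in the WT group (4 arrays), lacked apolipoprotein E, a carrier of plasma lipids, in the ApoE group (5 arrays), and lacked apolipoprotein E and stabilin-1 (AS1, 3 arrays) or stabilin-2 (AS2, 6 arrays), which are scavenger receptors of sinusoidal endothelium. The knockouts belong to the plasma donors and not to the macrophages. Whether replicates came from different cultures or different plasma donors is not stated, so the p-values reflect no more than the spread among these 18 arrays, part of which may be technical.

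The respiratory chain in the inner mitochondrial membrane passes electrons from NADH (complex I) and succinate (complex II) through coenzyme Q, complex III and cytochrome c to oxygen at complex IV. Complexes I, III and IV pump protons, and complex V, the ATP synthase, makes ATP as protons flow back. Macrophages are known to shift between oxidative phosphorylation and glycolysis with their state of activation. The subunits encoded by mitochondrial DNA were not analysed here, because none of the 13 had a row.

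Affymetrix arrays gave 1 log2 expression value per row. An array has no read depth, and precision is limited by how many arrays a group has. Of the 78 rows, 69 had a mean at or above the 40th percentile of all row means (4.10 log2 units). The 9 rows below it were those of Ndufb3, Cox5b, Cox6b2, Cox7b, Cox7b2, Cox8b, Cox8c, Ndufa4l2 and Atp5h. Of 8 measured macrophage markers, Adgre1, Csf1r and Cd68 lay between 12.0 and 12.9 log2 units on every array. Group differences among the 8 are given with the other markers below. Some ApoE arrays stood apart. ApoE replicate 2 had the lowest mean correlation with its own group (r = 0.991 across genes, which are not independent replicates), and its subunit genes were on average 0.206 log2 units below their level over the 4 groups. ApoE replicate 1 held 24162 distinct values where each other array held 7087. ApoE replicate 5 had the next lowest correlation with the ApoE group (r = 0.994). Many counts of called subunit genes that rest on the ApoE arrays are also given without replicate 1, without replicate 2, or without replicates 2 and 5 together. Counts of other gene lists were not computed with arrays left out. In bulk RNA, fewer cells of a type and less RNA per cell cannot be told apart, and equalised array distributions hide a change in total RNA.

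Promoter windows from RefSeq (build GRCm38.p6, 250 bases before to 50 after each start) were matched by gene identifier for 63 of the 78 genes. They were searched on both strands for 3 motifs that are known at genes of mitochondrial proteins. GCGCATGC, a form of the NRF1 motif, was in the windows of 8 of the 63 genes (12.7%), against 3.05% of 27025 genes with a window and 3.91% of 18380 such genes with a row on the array. CCGGAAG, a form of the ETS motif bound by GABPA, was in 16 (25.4%), against 9.93% and 12.55%. AAGATGGCG, a form of the YY1 motif, was in 6 (9.52%), against 1.64% and 2.10%. The 3 strings were chosen with their matches known, windows of 1 gene can overlap, and a match is a description of letters and not a binding site. The 120 bases before the start are shown for 5 genes whose values carry the comparisons that follow, one without a match from complex V and one from complex I, and one with a match from each of complexes I, II and V. Sequences run 5′ to 3′ on the gene's own strand, and capitals mark the NRF1 string in Ndufa8 and Atp5k and the ETS string in Sdhd, as read on either strand. In Atp5k the capitals span a pair of overlapping matches, 1 on each strand.
Atp5b (chr10:128083187-128083306, plus strand): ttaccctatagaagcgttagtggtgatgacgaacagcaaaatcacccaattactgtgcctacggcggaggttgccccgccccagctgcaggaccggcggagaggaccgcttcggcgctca
Ndufa12 (chr10:94198915-94199034, plus strand): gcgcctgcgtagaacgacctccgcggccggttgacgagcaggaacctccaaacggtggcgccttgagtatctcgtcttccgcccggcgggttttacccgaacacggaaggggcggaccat
Ndufa8 (chr2:36049339-36049458, minus strand): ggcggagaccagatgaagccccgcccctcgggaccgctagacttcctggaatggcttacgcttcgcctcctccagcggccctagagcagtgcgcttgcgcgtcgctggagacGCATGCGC
Sdhd (chr9:50603850-50603969, minus strand): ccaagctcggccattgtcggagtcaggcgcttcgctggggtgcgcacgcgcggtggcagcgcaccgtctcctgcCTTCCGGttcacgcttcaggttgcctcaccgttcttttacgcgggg
Atp5k (chr5:108434400-108434519, minus strand): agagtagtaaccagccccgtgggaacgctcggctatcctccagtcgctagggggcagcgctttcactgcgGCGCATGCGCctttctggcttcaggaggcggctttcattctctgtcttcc
None of the 3 strings was in the Atp5b or Ndufa12 window, which says only that these letters are not there.

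AS1 plasma gave the lowest mean of the 4 groups for 43 of the 78 genes, and AS2 plasma gave the highest for 35. Between AS2 and WT the median difference over the 78 genes was 0.0086 log2 units, with 41 above 0, and it changed sign without AS2 replicate 1 (-0.0011) or WT replicate 2 (-0.016). Averaged over complex IV, WT lay above AS2 (0.037 against 0.011), as it did over the accessory genes of complex I (0.056 against 0.048). Averaged over all 78 genes, the deviation from the level over the 4 groups was -0.106, -0.087 and -0.084 log2 units on the 3 AS1 arrays. On the 6 AS2 arrays it had a lowest value of -0.0072, a median of 0.077 and a highest value of 0.096. The AS1 and AS2 arrays did not overlap. The WT arrays, at 0.045, -0.019, 0.086 and 0.052, lay above all AS1 arrays. The ApoE arrays spread most widely, at -0.054, -0.206, 0.102, 0.036 and 0.042, and replicate 2 was lower than every array of the other groups. These averages are descriptions without a test.

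**Figure D1:**
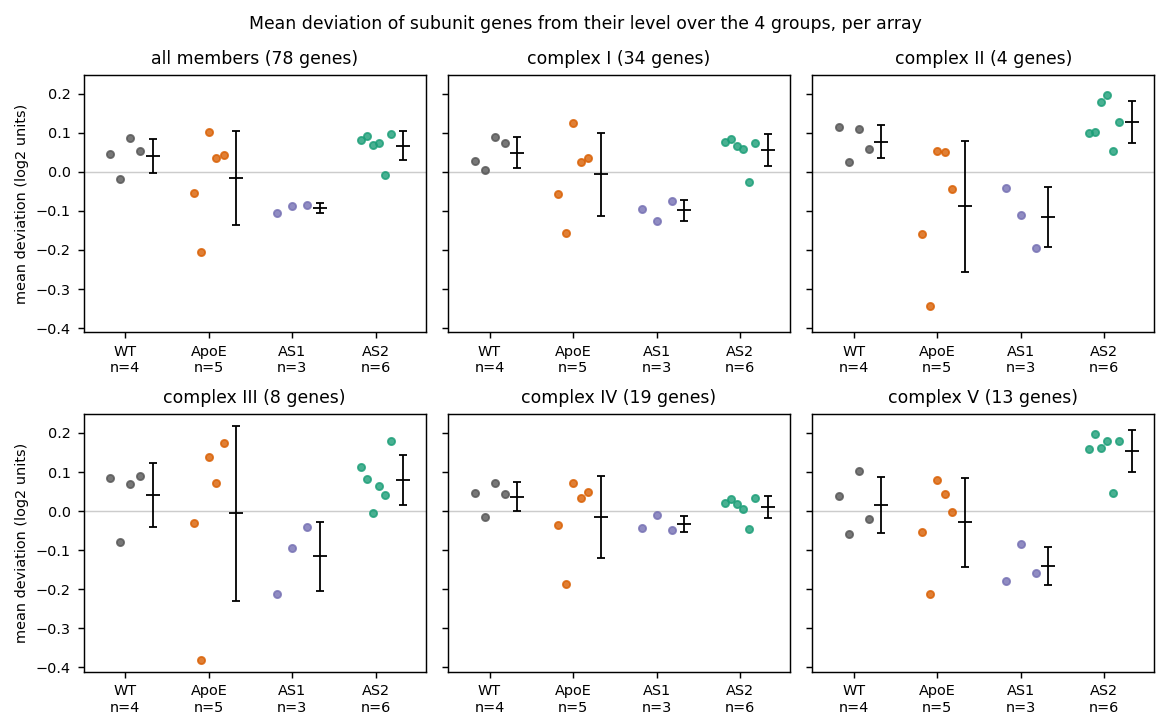
Mean deviation of the subunit genes from their level over the 4 groups (vertical axis, log2 units) on each array (points), for all 78 genes and for each complex, with group mean and SD in black. The 3 AS1 arrays lie at -0.106 to -0.084 over all genes. Complex V shows a gap between AS1 (-0.178 to -0.085) and AS2 (0.047 to 0.198). AS1 and AS2 arrays are also apart in complexes I, II and III, and they overlap in complex IV.

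The direct comparison of the plasmas that lack stabilin-2 or stabilin-1 had the most calls of the 6 comparisons. Relative to AS1, AS2 plasma gave higher expression of 21 of the 78 genes and lower expression of 2 (Ndufb11 and Uqcrh), with 55 not past the threshold of 0.05 on the limma p-value adjusted over all 24705 rows (Benjamini-Hochberg). Over all rows tested, 11.5% were higher and 10.6% lower, against 26.9% and 2.56% of the subunit genes. The median difference was 0.18 log2 units over the subunit genes and -0.0019 over all rows, and 59 of the 78 differences were above 0. By complex, 7 of 13 genes were higher in complex V, 2 of 4 in complex II, 3 of 8 in complex III and 7 of 34 in complex I. In complex IV 2 of 19 were higher, Ndufa4 and Cox6b2, and differences between the complexes were not tested. The 9 rows below the 40th percentile all belong to complex IV, apart from Ndufb3 (complex I) and Atp5h (complex V). Of the 21 higher calls, 13 were kept in every alternative processing and with each array left out, and 8 were lost in at least 1. Without AS1 replicate 1 the count of higher genes was 14. Neither lower call survived without AS1 replicate 3, and 3 genes were lower without AS2 replicate 1 or 6. The lower count was 7 when only the arrays of these groups were fitted, 5 without ApoE replicates 2 and 5 in the fit, and 4 with low rows left out or with array weights.

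**Figure D2:**
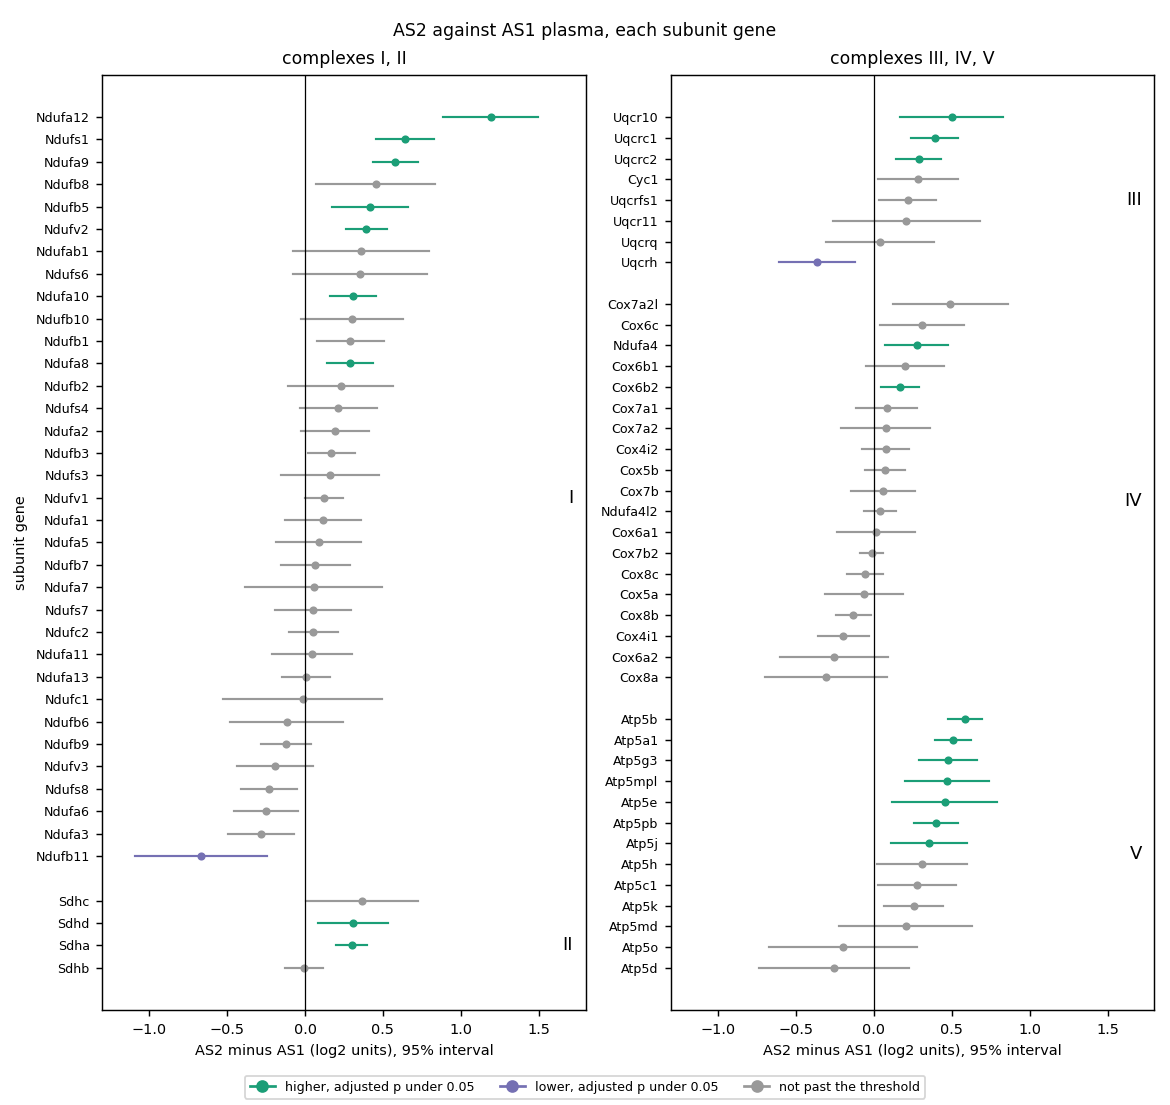
Difference AS2 minus AS1 (horizontal axis, log2 units, point) with its 95% interval (line) for each of the 78 subunit genes, ordered within complexes I to V. Green marks the 21 genes called higher and purple the 2 called lower. Complex V holds 7 green genes among 13, and complex IV, which has most of the 9 rows below the 40th percentile, holds 2 among 19.

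The other comparisons share groups with this one, and each is given by its own values. Against ApoE, AS1 plasma gave lower expression of 12 subunit genes and higher expression of 1 (8.80% of all rows were lower and 7.74% higher). The median difference was -0.077 log2 units, against 0.0019 over all rows, and it was -0.039 without ApoE replicate 3, -0.034 without ApoE replicate 4 and -0.050 without AS1 replicate 1. The lower genes were 6 of complex I, 3 of complex V and 1 each of complexes II, III and IV. With ApoE replicates 2 and 5 left out, 16 were lower and 1 higher, and with replicate 2 alone left out, 17 were lower and the call of Uqcrh, the higher gene, was lost. The higher count was 4 without ApoE replicate 5, and Uqcrh also lost its call without ApoE replicate 1 or AS1 replicate 2, which left no higher gene. Against WT, AS1 gave 5 lower genes and 0 higher ones, where 4.64% of all rows were lower and 4.84% higher. At an unadjusted limma p under 0.05, 20 of the 78 subunit genes differed between AS1 and WT in either direction, beside 5064 of all 24705 rows. Leaving out single arrays moved the count called lower from 1 (without AS1 replicate 3) to 10 (without WT replicate 2), with 0 higher in each such fit. The lower count was 9 with ApoE replicates 2 and 5 left out of the fit.

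The comparison of ApoE with WT plasma is between donors on the same diet with and without apolipoprotein E. Lipid levels of the plasma were not analysed here. ApoE plasma gave higher expression of 9 subunit genes and lower expression of 4, where 8.54% of all rows were higher and 8.36% lower. The 9 higher genes were Cox6a2, Atp5a1, Ndufa8, Ndufs1, Atp5b, Sdha, Uqcrc2, Ndufa10 and Atp5pb, and the 4 lower genes were Atp5e, Cox5a, Sdhd and Atp5k. The median difference was -0.058 log2 units, and 29 of the 78 differences were above 0. Without ApoE replicate 2 the median was -0.046 with 34 above 0, and the mean difference over the 78 genes moved from -0.057 to -0.0093. The median was -0.036 without ApoE replicates 2 and 5, and -0.038 without WT replicate 3 or WT replicate 4. Of the 9 higher calls 5 were kept in every alternative (Atp5a1, Atp5b, Cox6a2, Ndufa8, Sdha). None of the 4 lower calls was. The lower count was 1 without ApoE replicate 2, WT replicate 1, WT replicate 3 or WT replicate 4, and 9 without ApoE replicate 5. The higher count was 5 without WT replicate 4, 6 without ApoE replicate 1, 3 or 4, 11 without ApoE replicates 2 and 5, and 8 without replicate 2. Without ApoE replicate 1, 3 genes were lower, and without ApoE replicate 3, 7 were. With low rows left out 7 genes were lower, and with only the ApoE and WT arrays fitted 5 were higher and 0 lower.

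AS2 plasma, compared with ApoE, gave higher expression of 5 subunit genes (7.59% of all rows) and lower expression of 2 (8.02% of all rows). These are 6.41% and 2.56% of the subunit genes. The higher count was 10 with low rows left out and 8 with a trended robust variance. The 5 higher genes were Sdhd, Atp5k, Ndufb5, Atp5b and Uqcrc1, and the 2 lower genes Cox6a2 and Ndufb9. The median difference was 0.086 log2 units, with 57 of 78 above 0. Without ApoE replicate 2 it was 0.041, with 48 above 0, and without replicates 2 and 5 it was 0.043. Without ApoE replicate 2, and also without replicates 2 and 5, 4 were higher and 2 lower, and without replicate 1 the counts were 5 and 2. The higher count was 8 without ApoE replicate 3 or replicate 4. Against WT, AS2 gave 10 higher and 2 lower genes, where 8.65% of all rows were higher and 9.20% lower. Of those 10, 5 belonged to complex V. The lower count against WT was 4 without WT replicate 2 and 1 without WT replicate 1 or 3. It was 4 with low rows left out or array weights, 5 without ApoE replicates 2 and 5 in the fit, and 7 with only the AS2 and WT arrays fitted.

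**Figure D3:**
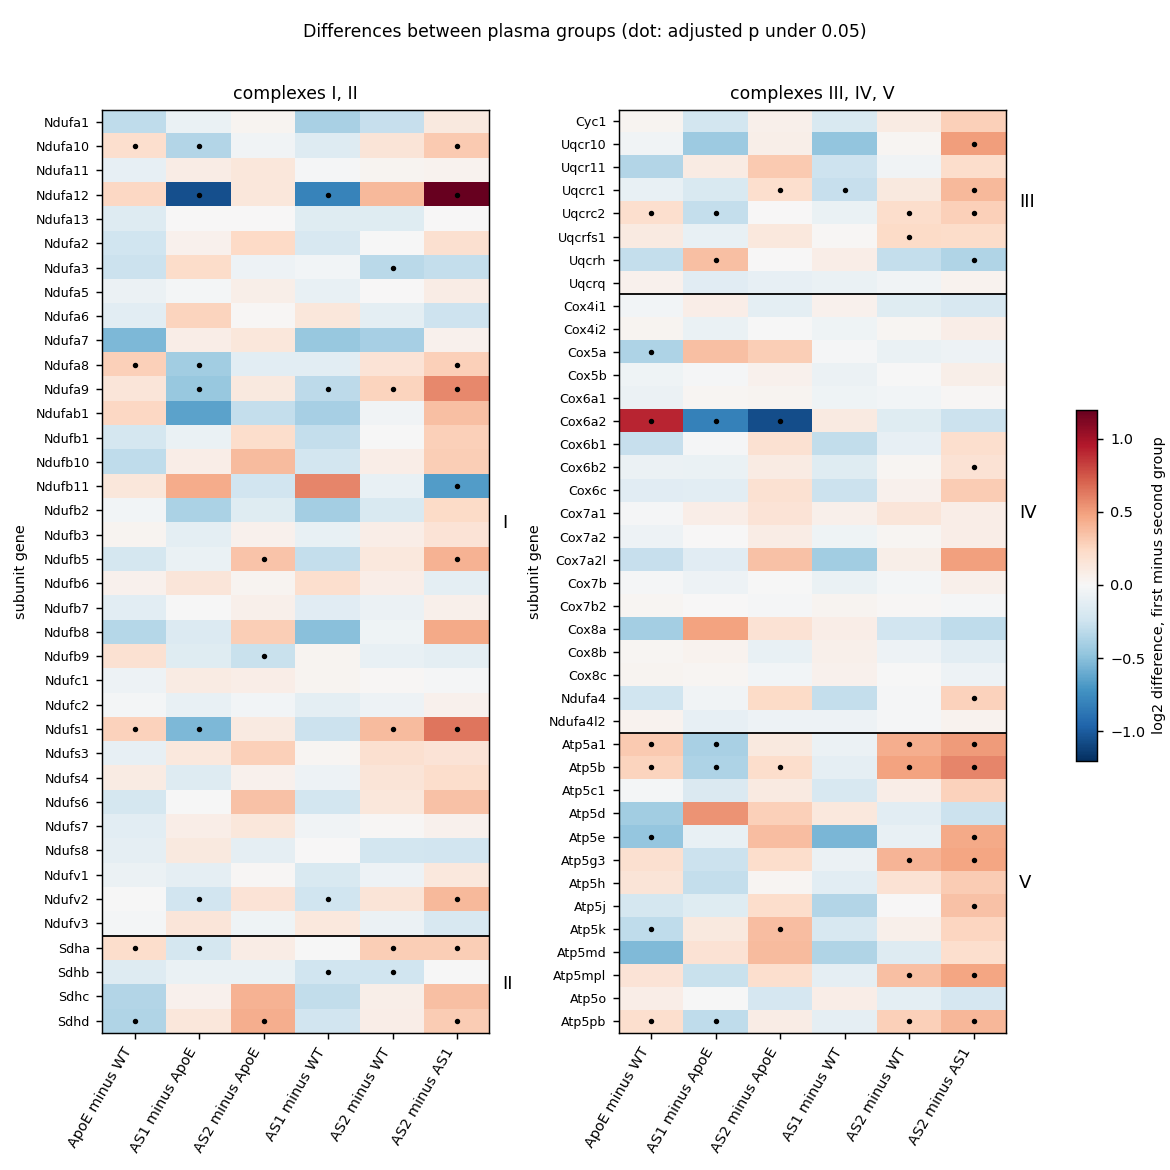
Log2 difference between plasma groups (colour, red where the first group is higher) for each subunit gene (rows, by complex) in 6 comparisons (columns), with a dot where the limma adjusted p was under 0.05. The column AS2 minus AS1 holds 21 dots on red and 2 on blue, and AS1 minus ApoE 12 on blue and 1 on red.

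In the gene paragraphs below, lost calls are mainly listed by arrays left out, and other alternatives that ended a call are not always named. Complex I takes electrons from NADH. Ndufs1 encodes its large iron-sulfur core subunit. Its log2 values were 8.13, 8.44, 8.18 and 8.21 with WT plasma, 8.62, 8.71, 8.47, 8.45 and 8.31 with ApoE plasma, and 7.90, 7.96 and 8.08 with AS1 plasma. With AS2 plasma the lowest was 8.46, the median 8.63 and the highest 8.82. All AS1 arrays lay below all arrays of the other groups. Ndufs1 fell by 0.54 ± 0.09 log2 units (SE) from ApoE to AS1 (adjusted p = 0.00041), and AS2 exceeded AS1 by 0.64 ± 0.09 (1.56-fold, adjusted p = 3.0e-05) and WT by 0.38 ± 0.08 (adjusted p = 0.0021). The ApoE over WT difference of 0.27 ± 0.08 had adjusted p = 0.030. It lost its call without ApoE replicate 1 or 2, without WT replicate 1, 3 or 4, and with only the ApoE and WT arrays fitted (highest adjusted p = 0.10). Over all 19 alternatives, kept ones included, it ranged from 0.22 to 0.34. The AS1 minus WT difference of -0.26 ± 0.09 did not pass (adjusted p = 0.11).

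Among the accessory subunits of complex I, Ndufa12 differed most. Its values were 8.97, 8.63, 9.002 and 8.96 with WT, 9.21, 8.95, 9.37, 9.15 and 9.03 with ApoE, and 8.31, 7.68 and 8.28 with AS1 plasma, and AS2 had a lowest value of 8.92, a median of 9.26 and a highest of 9.54. AS1 lay apart from the other 3 groups, and AS1 replicate 2 was the lowest of all arrays. AS1 was lower than ApoE by 2.08-fold (log2 difference -1.06 ± 0.15, adjusted p = 7.7e-05), lower than WT by 1.75-fold (-0.81 ± 0.16, adjusted p = 0.0023), and AS2 was 2.28-fold above AS1 (1.19 ± 0.14, adjusted p = 8.0e-06). These 3 calls were kept in every alternative, with AS1 minus ApoE between -1.16 and -0.85.

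Ndufa9, an accessory subunit near the coenzyme Q site, followed the same order. It read 8.41, 8.14, 8.43 and 8.31 with WT, 8.41, 8.31, 8.60, 8.59 and 8.42 with ApoE, 8.08, 8.04 and 7.90 with AS1, and 8.53, 8.59 and 8.64 (lowest, median, highest) with AS2 plasma. The AS1 arrays were below all others and the AS2 arrays above all WT arrays. AS2 exceeded AS1 by 0.58 ± 0.07 (adjusted p = 6.9e-06) and WT by 0.26 ± 0.06 (adjusted p = 0.0059), and AS1 was below ApoE by -0.46 ± 0.07 (adjusted p = 0.00019). The AS1 minus WT difference of -0.32 ± 0.07 (adjusted p = 0.010) lost its call without AS1 replicate 3 or when these groups were fitted alone (highest adjusted p = 0.073).

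Ndufa8 is an accessory subunit on the side of the intermembrane space. It read 8.71, 8.75, 9.01 and 8.86 with WT, 9.19, 9.28, 9.14, 9.02 and 8.96 with ApoE, 8.71, 8.68 and 8.71 with AS1, and 8.92, 8.98 and 9.08 (lowest, median, highest) with AS2 plasma. Here ApoE had the highest mean, 0.29 ± 0.07 above WT (adjusted p = 0.0049) with overlapping arrays, and AS1 lay 0.42 ± 0.07 below ApoE without overlap (adjusted p = 0.00052). AS2 exceeded AS1 by 0.29 ± 0.07 (adjusted p = 0.0054), and all 3 calls were kept in every alternative.

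Ndufa10, another accessory subunit, had means of 9.14 ± 0.09 (SD, n = 4) with WT, 9.33 ± 0.11 (n = 5) with ApoE, 8.98 ± 0.04 (n = 3) with AS1 and 9.29 ± 0.11 (n = 6) with AS2 plasma. It was lower with AS1 than with ApoE (-0.35 ± 0.07 log2 units, adjusted p = 0.0021) and higher with AS2 than with AS1 (0.31 ± 0.07, adjusted p = 0.0029). Its ApoE over WT call (0.20 ± 0.07, adjusted p = 0.047) was lost without any 1 of ApoE replicates 3, 4 and 5 or WT replicates 1, 2 and 4. A trended robust variance, a block for the replicate number, or fitting only the ApoE and WT arrays also ended it (highest adjusted p = 0.17). The iron-sulfur core subunit gene Ndufv2 was lowest with AS1, at 7.86, 8.01 and 7.99, against 8.17, 8.38 and 8.43 (lowest, median, highest) with AS2, a difference of 0.39 ± 0.06 (adjusted p = 0.00014). Its AS1 minus ApoE difference of -0.23 ± 0.06 (adjusted p = 0.019) lost its call without AS1 replicate 1 (highest adjusted p = 0.13). Its AS1 minus WT difference of -0.24 ± 0.07 (adjusted p = 0.032) did so without AS1 replicate 1 or 3 or WT replicate 1 or 2 (highest adjusted p = 0.17).

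Not every gene of complex I took this direction. Ndufb11, a subunit of the membrane arm, was highest with AS1 plasma, at 6.24, 5.83 and 6.12, and read 4.83, 5.61 and 5.76 (lowest, median, highest) with AS2. The AS2 minus AS1 difference of -0.67 ± 0.20 (adjusted p = 0.021) lost its call without AS1 replicate 1 or 3. A block for the replicate number, or fitting only the AS1 and AS2 arrays, also ended it (highest adjusted p = 0.11). AS2 replicates 1 and 5, at 4.83 and 4.86, lay far below the other AS2 arrays. Ndufb5, of the same arm, was higher with AS2 than with ApoE (0.34 ± 0.10, adjusted p = 0.023) and AS1 (0.42 ± 0.11, adjusted p = 0.012). The first of these calls was lost without ApoE replicate 1 or 2, or without replicates 2 and 5 together. The second was lost without AS1 replicate 1 or 3. A block for the replicate number also ended both (highest adjusted p = 0.16 and 0.11 in that order).

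Ndufb9, also of the membrane arm, had its highest values with ApoE plasma, 10.43, 10.39, 10.48, 10.28 and 10.30, all above the AS2 arrays (10.01 to 10.19). AS2 minus ApoE was -0.27 ± 0.06 (adjusted p = 0.0069), kept in every alternative. Ndufa3 was lower with AS2 than with WT (-0.32 ± 0.09, adjusted p = 0.020), a call lost without WT replicate 1 or 3 (highest adjusted p = 0.083). Ndufv1, the core subunit that binds NADH, had means between 8.07 and 8.25 and passed in no comparison. Its AS2 minus AS1 difference was 0.12 with a 95% interval from -0.000265 to 0.25.

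**Figure D4:**
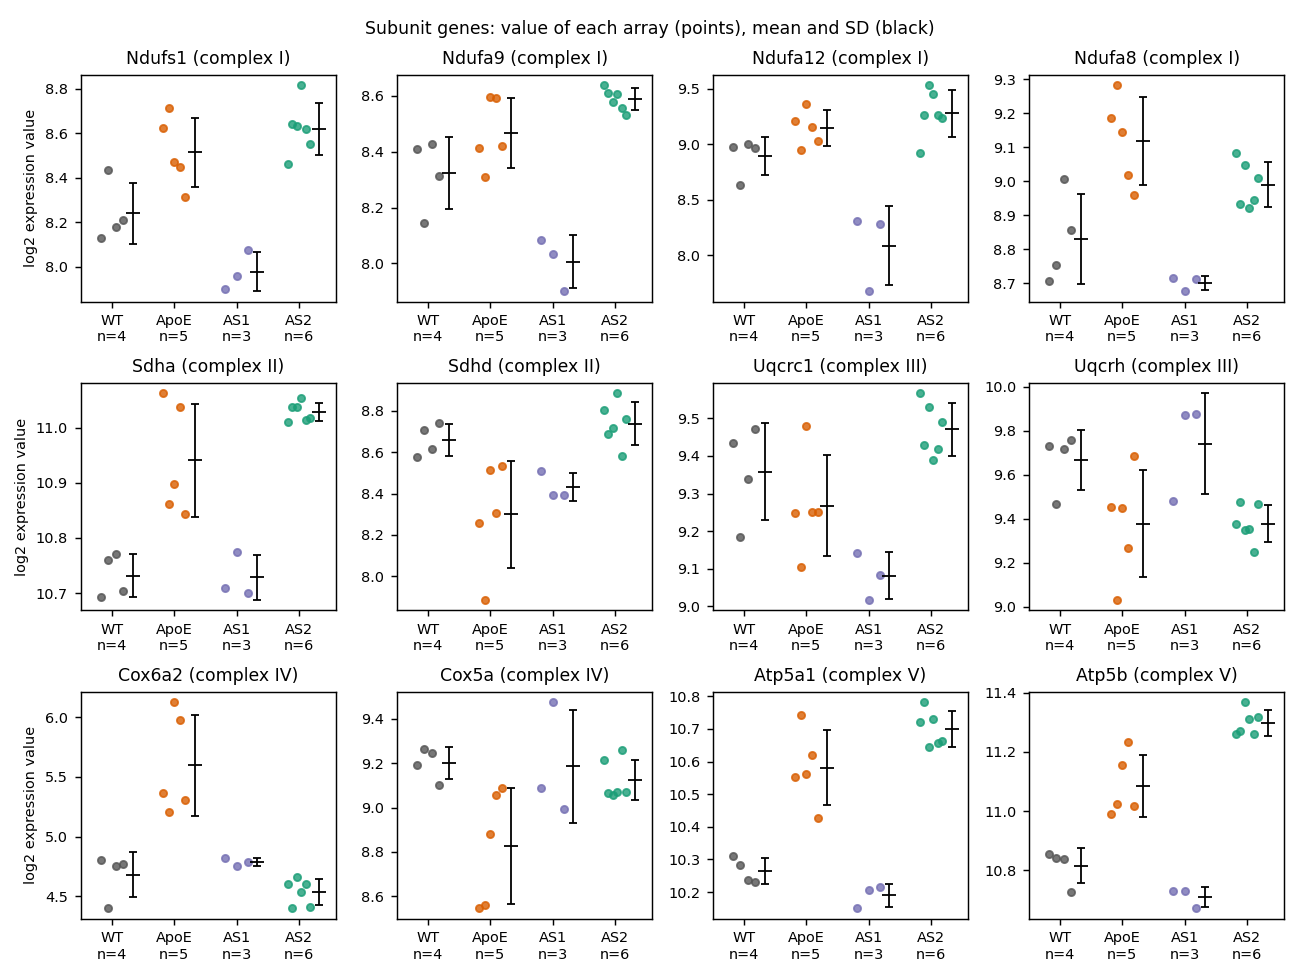
Log2 expression value (vertical axis) of 12 subunit genes of complexes I to V on every array (points, by plasma group), with group mean and SD in black. AS1 lies below all other arrays for Ndufs1, Ndufa9 and Ndufa12, Atp5a1 and Atp5b separate ApoE and AS2 from WT and AS1, and Cox6a2 is raised in ApoE alone.

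Complex II oxidises succinate and is shared with the TCA cycle. Sdha, its flavoprotein, read 10.69, 10.76, 10.77 and 10.70 with WT, 11.06, 10.86, 10.90, 11.04 and 10.84 with ApoE, 10.71, 10.78 and 10.70 with AS1, and 11.01, 11.03 and 11.05 (lowest, median, highest) with AS2 plasma. The WT and AS1 arrays interleaved, and both lay below all ApoE and AS2 arrays. ApoE exceeded WT by 0.21 ± 0.04 log2 units (adjusted p = 0.0025), AS2 exceeded WT by 0.30 ± 0.04 (adjusted p = 5.7e-05) and AS1 by 0.30 ± 0.05 (adjusted p = 0.00011), and these calls were kept in every alternative. AS1 was below ApoE by -0.21 ± 0.05 (adjusted p = 0.0046), a call lost only when these groups were fitted alone (adjusted p = 0.071).

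The membrane anchor gene Sdhd moved otherwise. It read 8.58, 8.71, 8.62 and 8.74 with WT, 8.26, 7.89, 8.51, 8.30 and 8.53 with ApoE, 8.51, 8.39 and 8.39 with AS1, and 8.58, 8.74 and 8.88 (lowest, median, highest) with AS2 plasma. ApoE lay below WT and AS2 without overlap, and replicate 2 was the lowest array. The difference was -0.36 ± 0.10 for ApoE minus WT (adjusted p = 0.017), a call lost without WT replicate 4 (highest adjusted p = 0.087), and 0.44 ± 0.09 for AS2 minus ApoE (adjusted p = 0.0019), kept in every alternative at 0.34 to 0.50. The AS2 minus AS1 call (0.31 ± 0.11, adjusted p = 0.046) was kept in 10 of 19 alternatives (highest adjusted p = 0.18), and leaving out any AS1 array, or any AS2 array but replicate 5, ended it. Sdhb, the iron-sulfur subunit, was highest with WT plasma (9.29, 9.22, 9.35 and 9.23). It was lower with AS2 (-0.24 ± 0.05, adjusted p = 0.0026, kept in every alternative) and with AS1 (-0.24 ± 0.06, adjusted p = 0.020), the latter call lost without AS1 replicate 2 or 3 or WT replicate 3 (highest adjusted p = 0.095).

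Complex III passes electrons from coenzyme Q to cytochrome c. Uqcrc1 encodes a core protein and read 9.44, 9.18, 9.34 and 9.47 with WT, 9.25, 9.11, 9.48, 9.25 and 9.25 with ApoE, 9.14, 9.02 and 9.08 with AS1, and 9.39, 9.46 and 9.57 (lowest, median, highest) with AS2 plasma. The AS1 arrays lay below all AS2 and all WT arrays, and AS2 exceeded AS1 by 0.39 ± 0.07 log2 units (adjusted p = 0.00060, kept in every alternative). AS1 minus WT was -0.28 ± 0.08 (adjusted p = 0.033), and without any AS1 array or without WT replicate 1, 3 or 4 it did not pass (highest adjusted p = 0.12). AS2 minus ApoE was 0.20 ± 0.06 (adjusted p = 0.032), and without ApoE replicate 1, 2, 4 or 5 or AS2 replicate 1, 3 or 6 it did not pass (highest adjusted p = 0.24).

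The other core protein gene, Uqcrc2, had means of 9.06 ± 0.12 (SD, n = 4) with WT, 9.27 ± 0.14 (n = 5) with ApoE, 8.99 ± 0.04 (n = 3) with AS1 and 9.27 ± 0.04 (n = 6) with AS2 plasma. AS2 exceeded AS1 by 0.29 ± 0.07 (adjusted p = 0.0043, kept in every alternative), and AS1 was below ApoE by -0.28 ± 0.07 (adjusted p = 0.0084, lost only when these groups were fitted alone, adjusted p = 0.055). ApoE over WT was 0.21 ± 0.06 (adjusted p = 0.035), lost without ApoE replicate 1, 3 or 4 or WT replicate 2, 3 or 4 (highest adjusted p = 0.15). AS2 over WT was 0.21 ± 0.06 (adjusted p = 0.024), lost without WT replicate 2 (adjusted p = 0.11).

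Uqcrh, the hinge protein that links to cytochrome c, ran the other way. It read 9.48, 9.87 and 9.88 with AS1, 9.25, 9.36 and 9.47 (lowest, median, highest) with AS2, 9.73, 9.46, 9.71 and 9.76 with WT, and 9.45, 9.03, 9.45, 9.27 and 9.69 with ApoE plasma. It was the only subunit gene called higher with AS1 than with ApoE (0.36 ± 0.12, adjusted p = 0.047), and that call was kept in 9 of 18 alternatives. It was lost without ApoE replicate 1, 2, 3 or 4 or AS1 replicate 2 or 3. Array weights, a block for the replicate number, or fitting only the AS1 and ApoE arrays also ended it (highest adjusted p = 0.21). Over all 18 alternatives, kept ones included, the difference ranged from 0.28 to 0.50. AS2 minus AS1 was -0.36 ± 0.12 (adjusted p = 0.031), lost without AS1 replicate 2 or 3 or AS2 replicate 3, 4 or 5 (highest adjusted p = 0.17). Uqcr10, a small subunit, was higher with AS2 than with AS1 (0.50 ± 0.16, adjusted p = 0.028), lost without AS1 replicate 1 or 2 or AS2 replicate 4 (highest adjusted p = 0.17). The Rieske iron-sulfur protein gene Uqcrfs1 was called only for AS2 over WT (0.23 ± 0.08, adjusted p = 0.048), kept in 11 of 20 alternatives and lost without AS2 replicate 1, 2, 4 or 6 or WT replicate 2, 3 or 4. Cyc1, the cytochrome subunit, passed in no comparison, and its AS2 minus AS1 difference was 0.28 (95% interval 0.025 to 0.54, adjusted p = 0.12).

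Complex IV, cytochrome c oxidase, had few calls and most of the 9 rows below the 40th percentile, and the largest differences were those of 1 isoform gene. Cox6a2 encodes the isoform of subunit VIa known from heart and skeletal muscle. It read 4.81, 4.40, 4.75 and 4.77 with WT, 5.36, 5.21, 6.13, 5.97 and 5.30 with ApoE, 4.83, 4.75 and 4.79 with AS1, and 4.41, 4.57 and 4.66 (lowest, median, highest) with AS2 plasma. Every ApoE array lay above every other array. ApoE exceeded WT 1.88-fold (0.91 ± 0.16 log2 units, adjusted p = 0.00035) and AS2 2.08-fold (AS2 minus ApoE -1.06 ± 0.14, adjusted p = 2.7e-05). AS1 minus ApoE was -0.81 ± 0.17 (adjusted p = 0.0025). These 3 calls were kept in every alternative, and outside the ApoE group its level was close to the median array value of 4.37. The widely expressed partner gene Cox6a1 had group means between 11.77 and 11.84 log2 units, and its AS2 minus AS1 difference was 0.013 (95% interval -0.24 to 0.26).

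Neither isoform of subunit IV passed in any comparison. Cox4i1, the common form of subunit IV, had means between 9.10 and 9.30, and Cox4i2, the form known from lung, between 4.22 and 4.30. Cox7a1, Cox7a2, Cox8a, Cox8b and Ndufa4l2 passed in none of the 6 comparisons. Cox7a2l, whose product is known to join complexes III and IV, was 0.49 log2 units higher with AS2 than with AS1 (95% interval 0.12 to 0.86), with adjusted p = 0.054. Cox5a, an accessory subunit encoded in the nucleus, was called lower with ApoE than with WT (-0.37 ± 0.11, adjusted p = 0.029). Its values were 9.19, 9.26, 9.24 and 9.10 with WT against 8.55, 8.56, 8.88, 9.06 and 9.09 with ApoE. The difference did not pass without ApoE replicate 1 or 2 or WT replicate 1, 2 or 3. Array weights, or fitting only the ApoE and WT arrays, also ended the call (highest adjusted p = 0.081).

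The 2 genes of complex IV called higher with AS2 than with AS1 had small differences. Ndufa4 read 9.45, 9.38 and 9.48 with AS1 and 9.52, 9.75 and 9.78 (lowest, median, highest) with AS2 plasma (0.27 ± 0.09, adjusted p = 0.046). Its call was kept in 10 of 19 alternatives and was lost without any AS1 array or without AS2 replicate 1, 2, 3, 4 or 6 (highest adjusted p = 0.15). Cox6b2, a form known from testis, lay below the 40th percentile (0.17 ± 0.06, adjusted p = 0.043) and was kept in 8 of 18 alternatives, lost without any AS1 array, without AS2 replicate 2, 3, 4 or 6, or without ApoE replicates 2 and 5 in the fit.

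In complex V, the ATP synthase, both genes of the catalytic head separated the groups. Atp5b encodes the beta subunit, which carries the catalytic sites. It read 10.86, 10.84, 10.84 and 10.73 with WT, 10.99, 11.03, 11.16, 11.23 and 11.02 with ApoE, 10.73, 10.73 and 10.67 with AS1, and 11.26, 11.29 and 11.37 (lowest, median, highest) with AS2 plasma. AS2 lay above every other array, ApoE lay between AS2 and the other 2 groups without overlap, and AS1 and WT overlapped. AS2 exceeded AS1 by 0.59 ± 0.05 log2 units (1.50-fold, adjusted p = 2.3e-07), WT by 0.48 ± 0.05 (adjusted p = 6.0e-07) and ApoE by 0.21 ± 0.04 (adjusted p = 0.0019). ApoE exceeded WT by 0.27 ± 0.05 (adjusted p = 0.00061), and AS1 was below ApoE by -0.37 ± 0.05 (adjusted p = 8.2e-05). These 5 calls were kept in every alternative. AS1 minus WT was -0.10 ± 0.06 (adjusted p = 0.31).

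Atp5a1 encodes the alpha subunit, which forms the head together with beta. It read 10.31, 10.28, 10.24 and 10.23 with WT, 10.55, 10.74, 10.56, 10.62 and 10.43 with ApoE, 10.15, 10.21 and 10.21 with AS1, and 10.64, 10.69 and 10.78 (lowest, median, highest) with AS2 plasma. Here too the ApoE and AS2 arrays lay above all WT and AS1 arrays. ApoE exceeded WT by 0.32 ± 0.05 (adjusted p = 0.00021), AS1 was below ApoE by -0.39 ± 0.06 (adjusted p = 8.6e-05), and AS2 exceeded AS1 by 0.51 ± 0.05 (1.42-fold, adjusted p = 1.9e-06) and WT by 0.43 ± 0.05 (adjusted p = 3.7e-06), all kept in every alternative. AS2 minus ApoE, 0.12 ± 0.05, did not pass (adjusted p = 0.10).

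In the membrane ring and in the stator that holds the head, Atp5g3 and Atp5pb were higher with AS2 than with AS1 and WT. Atp5g3, a gene of the ring subunit c, read 8.76, 8.79, 8.78 and 8.77 with WT, 8.94, 8.62, 9.05, 9.19 and 9.03 with ApoE, 8.82, 8.65 and 8.65 with AS1, and 9.12, 9.14 and 9.35 (lowest, median, highest) with AS2 plasma. AS2 exceeded AS1 by 0.47 ± 0.09 (adjusted p = 0.00061) and WT by 0.40 ± 0.08 (adjusted p = 0.0014), both without overlap and kept in every alternative. Other genes of subunit c were not analysed here. Atp5pb, subunit b of the stator, had means of 8.87 ± 0.10 (SD, n = 4), 9.07 ± 0.10 (n = 5), 8.76 ± 0.16 (n = 3) and 9.16 ± 0.04 (n = 6) with WT, ApoE, AS1 and AS2 plasma. AS2 was above AS1 by 0.40 ± 0.07 (adjusted p = 0.00024) and above WT by 0.29 ± 0.06 (adjusted p = 0.0023), and AS1 was below ApoE by -0.31 ± 0.07 (adjusted p = 0.0042). Those 3 calls were kept in every alternative. Its ApoE over WT call (0.20 ± 0.06, adjusted p = 0.041) was lost without ApoE replicate 1, 2, 3 or 4 or WT replicate 1, 3 or 4 (highest adjusted p = 0.14). Of the other stator genes, Atp5h and Atp5o passed in no comparison. Atp5o had means of 5.12 with AS2, 5.32 with AS1 and 5.24 with WT plasma, and Atp5j had 4.93 with both AS2 and WT.

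Atp5k, a small membrane subunit, shared the pattern of Sdhd. It read 8.87, 8.66, 8.80 and 8.82 with WT, 8.28, 8.24, 8.70, 8.57 and 8.60 with ApoE, 8.72, 8.41 and 8.65 with AS1, and 8.78, 8.85 and 8.93 (lowest, median, highest) with AS2 plasma. AS2 exceeded ApoE by 0.37 ± 0.08 without overlap (adjusted p = 0.0025, kept in every alternative). ApoE minus WT was -0.30 ± 0.09 (adjusted p = 0.020), lost without ApoE replicate 1 or 2 or WT replicate 1, 3 or 4 (highest adjusted p = 0.082). Atp5e, the epsilon subunit of the central stalk, was lower with ApoE than with WT (-0.46 ± 0.15, adjusted p = 0.044), lost without ApoE replicate 1, 2 or 4 or WT replicate 1, 3 or 4 (highest adjusted p = 0.17).

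The remaining calls of complex V were those of AS2 over AS1 for Atp5mpl (0.47 ± 0.13, adjusted p = 0.012), Atp5e (0.45 ± 0.16, adjusted p = 0.0496) and Atp5j (0.35 ± 0.11, adjusted p = 0.033), and of AS2 over WT for Atp5mpl (0.36 ± 0.12, adjusted p = 0.040). Leaving out AS1 replicate 1 ended all 3 of the AS2 over AS1 calls (highest adjusted p = 0.11, 0.21 and 0.14 in that order). AS1 replicate 3 and AS2 replicates 2, 3, 4, 5 and 6, and ApoE replicates 2 and 5 left out of the fit, did so for Atp5e, and AS1 replicates 2 and 3 and AS2 replicates 1, 2 and 4 for Atp5j. The AS2 over WT call of Atp5mpl was lost without AS2 replicate 1, 3, 4 or 6 or WT replicate 1, 3 or 4 (highest adjusted p = 0.17).

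Genes that build and feed the complexes were counted from lists drawn up with earlier results of these data known. With AS2 relative to AS1 plasma, 20 of 47 assembly factor genes were higher and 1 lower, as were 33 and 2 of 76 genes of mitochondrial ribosomal proteins, which translate the subunits encoded by mitochondrial DNA. The same counts were 8 and 1 of 14 for mitochondrial chaperones and proteases and 9 and 1 of 18 for pyruvate dehydrogenase and the TCA cycle. They were 5 and 1 of 14 for electron carriers and energy transport, 3 and 1 of 12 for coenzyme Q synthesis, and 5 and 4 of 18 for regulators of mitochondrial biogenesis. The median differences were 0.25, 0.27, 0.25, 0.14, 0.23, 0.18 and 0.034 log2 units in that order, beside -0.0019 over all rows. Of all rows, 11.5% were higher and 10.6% lower with AS2 than with AS1. Counts of these lists and of the marker lists were computed with all 18 arrays only. Mrps6 of the mitochondrial ribosome exceeded AS1 by 1.91 ± 0.11 (adjusted p = 1.7e-09) and Idh3a of the TCA cycle by 1.29 ± 0.16 (adjusted p = 8.5e-06). The mitochondrial chaperone Hspd1 exceeded AS1 by 0.93 ± 0.09 (adjusted p = 7.9e-07) and the inner membrane protease Afg3l2 by 0.85 ± 0.05 (adjusted p = 6.2e-09). Cox17, a copper chaperone for complex IV, exceeded AS1 by 0.51 ± 0.08 (adjusted p = 8.3e-05), and the mitochondrial DNA packaging factor Tfam by 0.73 ± 0.18 (adjusted p = 0.0067).

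With AS1 relative to ApoE plasma, where 8.80% of all rows were lower and 7.74% higher, 12 of 47 assembly factors, 17 of 76 mitochondrial ribosomal protein genes, 7 of 14 chaperones and proteases, 9 of 18 TCA cycle genes, 7 of 14 carriers, 4 of 12 coenzyme Q genes and 3 of 18 biogenesis regulators were lower. The median differences were -0.20, -0.18, -0.35, -0.23, -0.24, -0.20 and -0.088 log2 units in that order, beside 0.0019 over all rows. Higher were 1 ribosomal protein gene, 1 TCA cycle gene (Fh1, 0.41 ± 0.07) and 1 regulator (Polg2, 0.30 ± 0.09). Hspa9, the mitochondrial HSP70, read -1.19 ± 0.09 log2 units for AS1 minus ApoE (adjusted p = 4.5e-07), Coq2 of coenzyme Q synthesis -1.16 ± 0.16 (adjusted p = 5.2e-05), and Dlat, a pyruvate dehydrogenase subunit, -0.65 ± 0.08 (adjusted p = 1.8e-05).

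For ApoE against WT, where 8.54% of all rows were higher and 8.36% lower, the counts of higher and lower genes were 3 and 2 of 47 assembly factors (6.38% and 4.26%) and 6 and 4 of 76 mitochondrial ribosomal protein genes (7.89% and 5.26%), shares under those of all rows. They were 6 and 0 of 14 chaperones and proteases, 6 and 0 of 18 TCA cycle genes, 5 and 1 of 14 carriers, 3 and 1 of 12 coenzyme Q genes and 4 and 2 of 18 regulators. Hspa9 was 1.34 ± 0.08 higher (adjusted p = 5.1e-09) and Idh2 0.54 ± 0.06 higher (adjusted p = 5.2e-06). For AS2 against ApoE, where 7.59% of all rows were higher and 8.02% lower, they were 2 and 2, 6 and 1, 2 and 2, 2 and 1, 1 and 3, 1 and 2, and 1 and 3 in the same order, with Mrps6 0.99 ± 0.09 higher (adjusted p = 5.1e-07) and Hspa9 at -0.69 ± 0.07 (adjusted p = 2.2e-06).

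**Figure D5:**
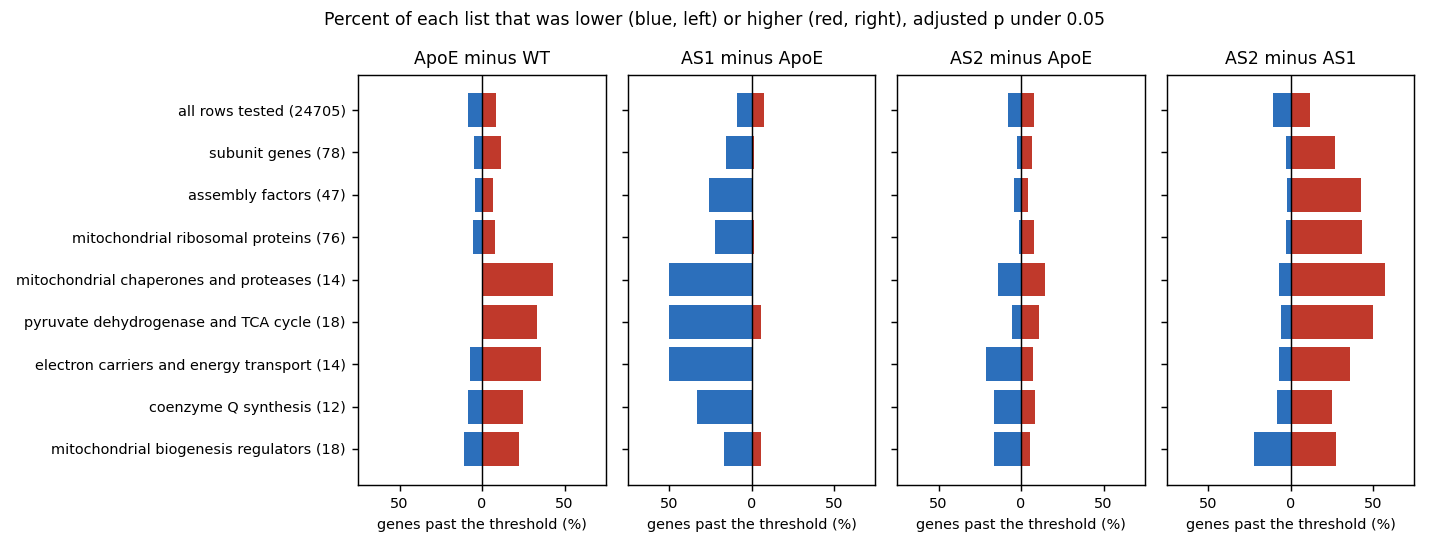
Percent of the genes of each list (number measured in parentheses) that were lower (blue, to the left) or higher (red, to the right) at a limma adjusted p under 0.05, in 4 comparisons. All rows tested stay near 7.59% to 11.5% on either side, while AS2 minus AS1 shows 26.9% of the subunit genes higher.

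Markers of other cell types and states moved with the same groups. Of all rows, 7.74% were higher and 8.80% lower with AS1 than with ApoE. With AS2 relative to AS1 plasma, 11.5% of all rows were higher and 10.6% lower. All 13 neutrophil markers were higher with AS1 than with ApoE and lower with AS2 than with AS1. Their summed level spanned 13.9 to 14.2 log2 units with AS1, 11.3 to 12.1 with AS2, 12.1 to 13.2 with ApoE and 12.2 to 12.5 with WT plasma. Of 8 mast cell, basophil and eosinophil markers 6 were lower with AS2 than with AS1 (summed level 9.11 to 9.69 with AS1, 7.24 to 7.45 with AS2, 7.52 to 8.19 with ApoE and 7.50 to 7.99 with WT), and of 5 megakaryocyte and platelet markers all 5 were (11.1 to 11.3, 8.92 to 9.32, 10.1 to 11.0 and 10.3 to 10.5). B cell markers were lower in 3 of 4, dendritic markers in 3 of 5 and stromal and endothelial markers in 2 of 5. T and NK markers (4) and erythroid markers (3) had no call with limma. With AS2 relative to ApoE plasma, 5 of 13 neutrophil and 5 of 5 megakaryocyte and platelet markers were lower and 0 of either higher. Macrophage markers were higher in 3 of 8 and lower in 2 there (7.59% and 8.02% of all rows). With ApoE relative to WT plasma, 2 neutrophil markers were higher and 1 lower. Megakaryocyte and platelet markers were higher in 4 of 5 and lower in 1 (8.54% and 8.36% of all rows). Macrophage markers were lower with AS2 than with AS1 in 5 of 8 and higher with AS1 than with ApoE in 6 of 8, and their summed level stayed within 14.4 and 14.8 over all arrays. Relative to WT, 6 of the 8 were lower and 1 higher with ApoE, and 5 lower and 0 higher with AS2 plasma. Of all rows, 8.36% were lower with ApoE and 9.20% with AS2 than with WT. Aif1 read -1.42 log2 units for ApoE minus WT and -1.45 for AS2 minus WT. Osteoclast markers were higher with AS2 than with AS1 in 3 of 6 and lower in 1 (9.61 to 9.84 with AS1 and 10.0 to 10.2 with AS2).

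Of 16 proliferation genes, 14 were higher with AS2 than with AS1, 16 higher with AS2 than with ApoE, 5 higher with AS1 than with ApoE, and 15 higher with ApoE than with WT. Of all rows, 11.5%, 7.59%, 7.74% and 8.54% were higher in these comparisons, in that order. The summed level of the proliferation genes was 12.1 to 12.3 with WT, 12.8 to 13.1 with ApoE, 12.9 to 13.2 with AS1 and 13.5 to 13.7 with AS2 plasma. With AS1 relative to WT, 15 of 16 proliferation genes were higher (4.84% of all rows), where 5 subunit genes were lower (4.64% of all rows). Of 13 ATF4 response genes, 10 were higher with ApoE than with WT, 11 lower with AS1 and 10 lower with AS2 than with ApoE, and 5 higher and 2 lower with AS2 than with AS1. In the same order, 8.54% of all rows were higher, 8.80% and 8.02% lower, and 11.5% higher and 10.6% lower. The summed level of the ATF4 response genes was 10.8 to 10.9 with WT, 11.9 to 12.4 with ApoE, 10.9 to 11.2 with AS1 and 11.3 to 11.4 with AS2 plasma. The part of these cell types and states in the subunit results was not tested.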

How the data were processed

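The authors deposited 1 table of log2 expression values. Per the submitters' processing notes they come from RMA, which subtracts background, makes the array distributions equal and combines the probes of a gene. Its version and its grouping of probes are not given in the sources here. The table holds 25428 rows for 18 arrays, and 723 rows that the platform annotation does not name were left out of the main fit. Arrays were grouped by the plasma genotype in the labels. From the deposited values, limma 3.58.1 in R 4.3.3 fitted 4 group means to 24705 rows (lmFit, then eBayes, with 14 degrees of freedom left, no covariate and no filter on low values), with two-sided tests and Benjamini-Hochberg adjustment over all rows within a comparison. A call is an adjusted p under 0.05. In simulated data with the spread of these arrays, the script was tested on rows with known changes before use.

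The members, gene lists, naming rule and alternatives were chosen with earlier results of these data known. The rule named up to 8 called subunit genes per direction in the comparisons of ApoE with WT and of AS1 and AS2 with ApoE, up to 4 in the other comparisons, a fixed core set and isoform sets, and up to 2 genes of smallest p per list. Genes with further calls are named after their values were seen. Lists covered assembly factors, ribosomal proteins, chaperones and proteases, TCA cycle, carriers, coenzyme Q synthesis, biogenesis regulators, proliferation, the ATF4 response and markers of macrophages, neutrophils, mast cells with basophils and eosinophils, megakaryocytes, erythroid, dendritic, B, T and NK, stromal and osteoclast cells. List genes without a row were not analysed here. Coordinates of array probes were not used, and the printed coordinates are RefSeq's. Alternatives were a fit to all rows, to rows above the 40th percentile of means, or to 1 row per gene, median centring or quantile normalization again, limma's trended robust variance, array weights, a block for the replicate number, only the arrays of the groups compared, no ApoE replicates 2 and 5, and no single array in turn. Medians over the subunit genes with arrays left out were added after seeing the data.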

Additional observations from a re-analysis of the deposited data

Results flagged for a closer look

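In 126 groups of 4 to 6 arrays, over the named subunit genes and the mean deviations, 13 (10.3%) had 1 array whose gap to its nearest neighbour exceeded Dixon's critical value, where chance gives about 1 in 20. AS2 replicate 5 was the lowest AS2 array in the mean deviation over all 78 genes (-0.0072 log2 units, next 0.068), over complex I (-0.025), complex IV (-0.045) and complex V (0.047). WT replicate 2 was the lowest WT array for Ndufa12 (8.63 log2 units, next 8.96), Uqcrh (9.46), Cox6a2 (4.40) and the mean deviation over complex III (-0.080). WT replicate 4 was the lowest WT array for Atp5b (10.73, next 10.84). Among ApoE arrays, replicate 1 was lowest for Sdhb (8.94) and highest for Cox7a2l (6.18, next 5.54), and replicate 5 was lowest for Ndufv2 (8.06). AS2 replicate 1 was the highest AS2 array for Cox8b (3.97). ApoE replicate 2, the lowest array in the mean over all 78 genes, was not marked in this way.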

How the results depend on the processing

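Of 1389 recomputed differences of single called genes, 1208 kept their call, 181 lost it and none changed direction. Counts of called subunit genes moved more. With low rows left out, 7 were lower for ApoE minus WT, 2 higher for AS1 minus ApoE, 10 higher for AS2 minus ApoE, and 4 lower for both AS2 minus WT and AS2 minus AS1. A trended robust variance gave 2 higher for AS1 minus ApoE and 8 higher for AS2 minus ApoE. Array weights gave 0 higher for AS1 minus ApoE (Uqcrh lost its call), 11 lower for AS1 minus WT, and 4 lower for AS2 minus WT and for AS2 minus AS1. With only the arrays of the compared groups, ApoE minus WT had 5 higher and 0 lower, AS1 minus ApoE 0 higher, AS1 minus WT 1 higher and 2 lower, and AS2 minus WT and AS2 minus AS1 7 lower each. Without ApoE replicates 2 and 5, 9 were lower for AS1 minus WT, and 5 lower for both AS2 minus WT and AS2 minus AS1. With single arrays left out, higher and lower counts ranged from 5 to 8 and 1 to 9 for ApoE minus WT, 0 to 4 and 11 to 17 for AS1 minus ApoE, 4 to 8 and 2 to 2 for AS2 minus ApoE, 0 to 0 and 1 to 10 for AS1 minus WT, 8 to 12 and 1 to 4 for AS2 minus WT, and 14 to 21 and 0 to 3 for AS2 minus AS1. The cause of these shifts was not tested, and some of these fits also held fewer arrays or rows.

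Replicate numbers gave no visible pairing of the arrays. Deviations of same-numbered arrays of different groups correlated at a median of -0.014 (22 pairs, -0.207 to 0.133, 4 over 0.1). For differently numbered arrays the median was 0.0032 (97 pairs, -0.280 to 0.377, 17 over 0.1). Whether arrays share a culture or a plasma donor cannot be told from these correlations. With the replicate block, AS1 minus ApoE had 0 higher subunit genes and AS2 minus AS1 had 16 higher. With 3 AS1 arrays, small differences can be missed, and a row near the background of the array has little room to fall.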
